A study of Mus musculus with 2 samples.

Results

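The miR-15/16 family with miR-322 and miR-503 was examined in sorted murine bone marrow (BM) cells. Its members were the 8 mature miRNAs mmu-miR-15a-5p, mmu-miR-15b-5p, mmu-miR-16-5p, mmu-miR-195a-5p, mmu-miR-497a-5p, mmu-miR-322-5p, mmu-miR-322-3p and mmu-miR-503-5p, taken by name from the 1881 mouse miRNAs of the array. The rule used names and no signal, but the family was chosen with earlier results of these data known. Total RNA came from LSKs, the lineage-negative, c-Kit+, Sca-1+ fraction of the BM in which hematopoietic stem and early progenitor cells reside. The donors were C57BL/6 Scl/tTA-BCR/ABL mice, in which the Scl-tTA driver directs the BCR/ABL (BA) oncogene to stem and progenitor cells and doxycycline at 20 mg/L of drinking water keeps it off. The week-3 group (3W_LSK) was sorted 3 weeks after doxycycline was withdrawn, and the week-0 group (0W_LSK) carried the same transgenes and was sorted at 0 weeks. LSKs of 3 mice were pooled in each group and hybridized to 1 array per group. No pool from mice without BA was withdrawn from doxycycline in parallel, so BA, doxycycline, time and the particular pool cannot be told apart. With 1 array per group no test between the groups was possible, and every error below is over replicate spots within an array and covers technical error only.

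A miRNA guides the silencing complex to messenger RNAs that pair with its seed, the bases near its 5′ end, so miRNAs with one seed are grouped as a family with overlapping targets. The miR-15/16 family is known as a brake on cell division and survival, with cyclin D and cyclin E genes, cyclin-dependent kinase 6 and the anti-apoptotic gene Bcl2 among its targets. In human chronic lymphocytic leukemia the DLEU2 locus that holds miR-15a and miR-16-1 is often deleted. miR-322, the mouse counterpart of human miR-424, and miR-503 come from one X-linked primary transcript and restrain the same part of the cell cycle.

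The mature sequences are shown because the grouping of the members, and the way their probes tell them apart, rest on them. All 8 members matched an entry of RefSeq on GRCm38.p6, and capitals mark the seed, bases 2 to 8 counted from 1 at the 5′ end.
mmu-miR-15a-5p: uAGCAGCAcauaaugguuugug
mmu-miR-15b-5p: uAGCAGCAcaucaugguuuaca
mmu-miR-16-5p: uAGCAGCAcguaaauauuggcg
mmu-miR-195a-5p: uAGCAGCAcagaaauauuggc
mmu-miR-497a-5p: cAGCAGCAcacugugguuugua
mmu-miR-322-5p: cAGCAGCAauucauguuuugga
mmu-miR-503-5p: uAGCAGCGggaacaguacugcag
mmu-miR-322-3p: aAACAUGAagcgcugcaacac

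Of these, 6 of the 8 members shared bases 2 to 8. mmu-miR-503-5p differed from mmu-miR-16-5p at the last seed base (A8G, the base of mmu-miR-16-5p first) and so shared bases 2 to 7, which 7 of the 8 members had in common. mmu-miR-322-3p, the other arm of the miR-322 precursor, had an unrelated seed. Outside the seed the members diverged. mmu-miR-15a-5p and mmu-miR-15b-5p differed at 4 of 22 positions (A12C, G20A, U21C and G22A, mmu-miR-15a-5p first). mmu-miR-16-5p and mmu-miR-195a-5p differed at only 2 of the 21 positions they share (G10A and U11G, mmu-miR-16-5p first), the closest pair in the family.

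The members came from 4 gene clusters. On chromosome 14, Mir15a and Mir16-1 lay 54 bases apart within Dleu2, a long noncoding RNA gene, with mature miR-15a-5p at chr14:61632075-61632096 on the minus strand. On chromosome 3, Mir15b and Mir16-2 lay 66 bases apart within the protein-coding gene Smc4, a condensin subunit, with mature miR-15b-5p at chr3:69009775-69009796 on the plus strand. Mature miR-16-5p is identical from its 2 loci, chr14:61631936-61631957 and chr3:69009918-69009939, so its signal cannot be divided between Dleu2 and Smc4. On chromosome 11, Mir497 and Mir195a lay 241 bases apart, with miR-195a-5p at chr11:70235062-70235082 and miR-497a-5p at chr11:70234730-70234751, both on the plus strand. On chromosome X, Mir503 and Mir322 lay 200 bases apart on the minus strand within the long noncoding RNA gene C430049B03Rik, with miR-322-5p at chrX:53054306-53054327 and miR-503-5p at chrX:53054027-53054049. The positions are those of the GRCm38.p6 annotation.

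The scanner software called 193 miRNAs detected at week-3 and 178 at week-0, with 158 detected on both arrays and 213 (11.3% of 1881) on at least 1. The median summed signal of the detected miRNAs was 71.4 at week-3 and 85.3 at week-0. The blood-cell miRNAs listed as markers were detected on both arrays (3 of 3), and so were 3 of 3 stem and progenitor markers. Markers of stromal cells (mmu-miR-143-3p, mmu-miR-145a-5p and mmu-miR-199a-3p, 0 of 3) and of liver, muscle and neurons (0 of 4) were not detected on either array. The total signal over each of these lists was below 0. Endothelial cells were not assessed by these markers. Of the erythroid markers 1 of 3 was detected, mmu-miR-451a at week-0 alone. The labelled blood progenitor origin was thus met by its markers.

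By detection, 4 of the 8 family members were detected, and each of these 4 on both arrays: mmu-miR-15a-5p, mmu-miR-15b-5p, mmu-miR-16-5p and mmu-miR-322-5p. The Dleu2 cluster had 2 of its 2 members detected and the Smc4 cluster 2 of 2, mmu-miR-16-5p counting in each. The chromosome 11 cluster had 0 of 2, and the chromosome X cluster 1 of 3. The scanner's flags per spot divided in the same way. They come from the same spots as the detection call and so are no independent support for it. For the 8 probes of the detected members, 120 of 120 spots were well above background on each array, and for the 10 probes of the undetected members, 0 of 120 spots were on either.

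All 4 detected members had lower signals at week-3. Signals are given as the sum of a miRNA's probe means, background-subtracted and not scaled between arrays, with its standard error over spots. On this scale mmu-miR-322-5p measured 108 ± 1.84 at week-3 and 303 ± 2.90 at week-0, a ratio of 0.355 or 2.81-fold lower. mmu-miR-15a-5p measured 231 ± 2.02 at week-3 and 495 ± 4.57 at week-0, a ratio of 0.466. mmu-miR-16-5p measured 445 ± 6.01 at week-3 and 788 ± 9.97 at week-0, a ratio of 0.564, and mmu-miR-15b-5p measured 598 ± 6.71 at week-3 and 938 ± 12.4 at week-0, a ratio of 0.637. In a sorted pool, fewer cells that carry a miRNA and less of it per cell cannot be told apart. The signals of different miRNAs are not comparable with each other, since each probe binds with its own strength, so only the ratios are set side by side.

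The spots of each probe showed the same direction. The probe of mmu-miR-322-5p that spans all 22 bases averaged 62.0 ± 5.78 (SD, n = 15 spots) at week-3 and 176 ± 7.17 (n = 14) at week-0, with spots between 54.8 and 73.5 at week-3 and between 163 and 188 at week-0. Its 21-base probe averaged 45.8 ± 4.16 (n = 15) at week-3 and 127 ± 8.41 (n = 15) at week-0. The highest week-3 spot of either probe was well under the lowest week-0 spot. For mmu-miR-15a-5p the 22-base probe averaged 124 ± 4.90 (n = 14) at week-3 and 261 ± 15.5 (n = 15) at week-0, and the 21-base probe averaged 107 ± 5.74 (n = 14) at week-3 and 234 ± 7.92 (n = 13) at week-0. These groups of spots did not overlap either. How many other detected probes separate in this way was not counted.

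The probes of the other pair were shorter than the miRNA and paired with its 3′ part. For mmu-miR-16-5p, the 18-base probe averaged 339 ± 21.9 (n = 15) at week-3 and 608 ± 37.3 (n = 15) at week-0, and the 17-base probe averaged 106 ± 7.79 (n = 14) at week-3 and 180.1 ± 9.68 (n = 14) at week-0. Both probes of this miRNA, which is shared by Dleu2 and Smc4, were dimmer at week-3. For mmu-miR-15b-5p, the 20-base probe averaged 365 ± 23.1 (n = 15) at week-3 and 592 ± 42.8 (n = 15) at week-0, and the 19-base probe averaged 233 ± 11.97 (n = 15) at week-3 and 346 ± 20.9 (n = 14) at week-0. Across the 8 probes of the detected members the coefficient of variation over spots was 3.38% to 9.32% on the 2 arrays, and for all of them the spots of week-3 lay below those of week-0 without overlap. The share of all detected probes that separate in this way was not counted. The separation is therefore not shown to be particular to the family.

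**Figure D1:**
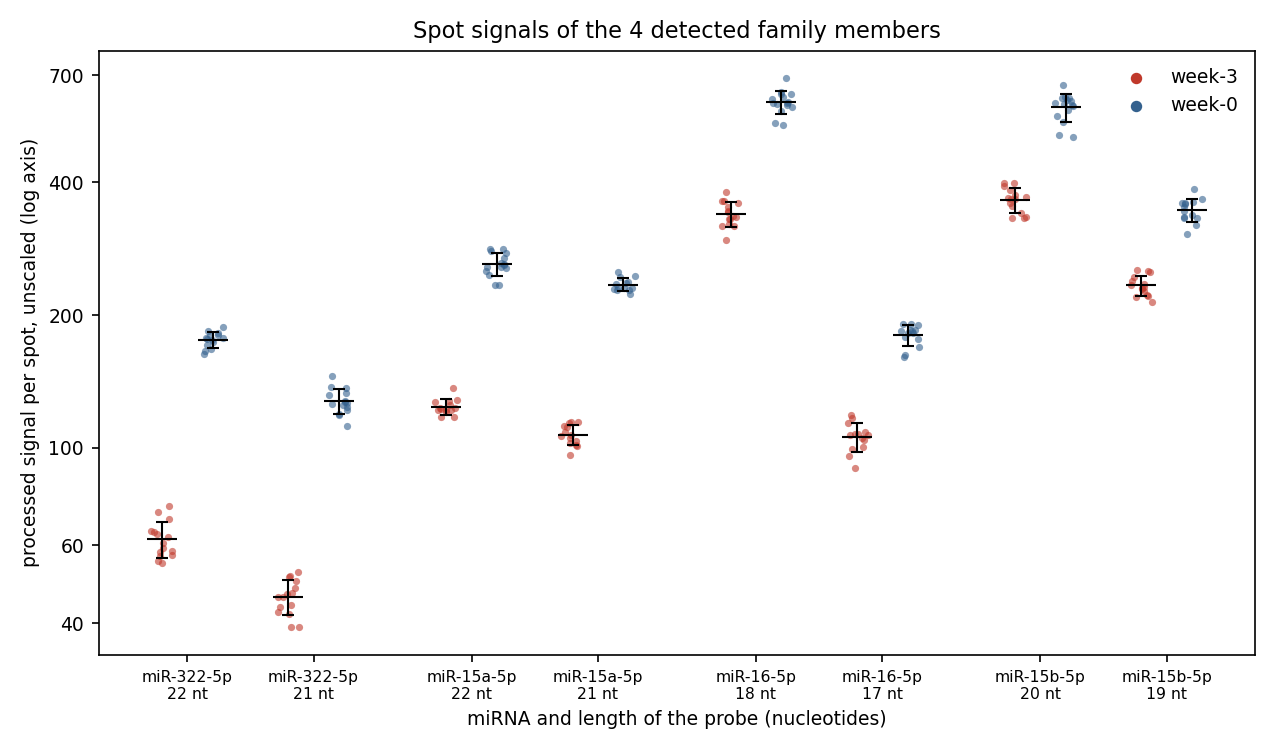
Processed signal of each spot (log axis, not scaled between arrays) for the 2 probes of each detected member, week-3 left of week-0. Points are spots, the bar and whiskers are the mean ± SD over spots, and for every probe the week-3 spots lie below all week-0 spots, as for the 22-base probe of miR-322-5p at 54.8 to 73.5 against 163 to 188. The share of all detected probes that separate in this way was not counted.

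The detected miRNAs as a whole also had slightly lower signals at week-3. Without scaling, the 158 miRNAs detected on both arrays had a median log2 difference (week-3 minus week-0) of −0.18. After quantile normalization, the scaling used in the study, that median was −0.04, and all values below are on this scale unless stated. The difference was −1.13 (SE 0.03 over spots) for mmu-miR-322-5p, −0.73 (SE 0.02) for mmu-miR-15a-5p, −0.43 (SE 0.03) for mmu-miR-16-5p and −0.29 (SE 0.02) for mmu-miR-15b-5p. As folds, mmu-miR-322-5p was 2.19-fold lower, mmu-miR-15a-5p 1.66-fold, mmu-miR-16-5p 1.35-fold and mmu-miR-15b-5p 1.22-fold. Among the 158 miRNAs they ranked 11, 32, 52 and 62 from the lowest difference in this order. A difference of 0.00, that of mmu-miR-20a-5p, ranked 81 of 158, so values below 0 were common.

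By the threshold of the study, a ratio of at most 0.67 or at least 1.5, 2 of the 4 detected members were lower at week-3, mmu-miR-322-5p and mmu-miR-15a-5p, and 0 were higher. The background was 28.6% lower (61 of 213 miRNAs detected on at least 1 array) and 25.8% higher (55 of 213). It includes 35 miRNAs detected at week-3 alone and 20 at week-0 alone, whereas the 4 members were detected on both arrays. The share among miRNAs detected on both arrays was not computed. mmu-miR-16-5p, with a ratio of 0.740, and mmu-miR-15b-5p, with a ratio of 0.819, stayed within it. The median difference of the 4 detected members was −0.58, beside 0.00 for the 213 miRNAs. At 2-fold or more, 1 of the 4 members was lower (mmu-miR-322-5p), against a background of 15.5%. With 4 members these counts are a description only.

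**Figure D2:**
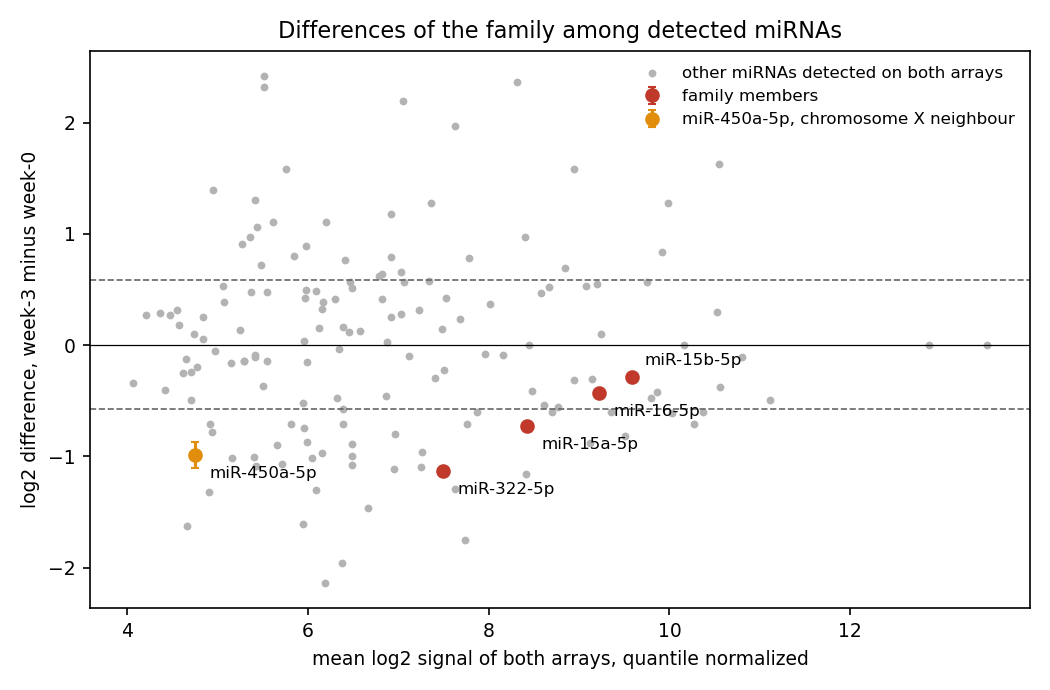
Log2 difference (week-3 minus week-0, y axis) against the mean log2 signal of both arrays (x axis) after quantile normalization, for the 158 miRNAs detected on both arrays. Dashed lines mark ratios of 1.5 and 0.67, whiskers are the SE over spots, and the 4 members lie below 0, from −0.29 for miR-15b-5p to −1.13 for miR-322-5p.

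The count of members past the threshold depended on the scaling. Without scaling between arrays 4 of 4 detected members were lower, against a background of 35.7%, and with each array scaled to its 75th percentile over all miRNAs likewise 4 of 4, against 34.7%. With the authors' normalized values 2 of 4 were lower, against 24.9%, with log2 levels there of 5.96 at week-3 and 7.33 at week-0 for mmu-miR-322-5p and 7.05 at week-3 and 8.08 at week-0 for mmu-miR-15a-5p. With a summary whose background correction added a chosen offset of 50, 1 of 4 was lower (mmu-miR-322-5p, −0.69), against 4.69%. The sign and the order did not depend on it, but the step between mmu-miR-16-5p and mmu-miR-15b-5p varied in size. With the scanner's total signal, normalized between arrays, it was narrow, at −0.30 for mmu-miR-16-5p and −0.26 for mmu-miR-15b-5p. Before normalization the scanner totals of the 4 members were proportional to their summed signals, with the same ratios between the arrays. For them this alternative thus differs through the normalization alone and is no separate measure of signal. In 13 of 13 alternatives each of the 4 members was lower at week-3, and the order from mmu-miR-322-5p through mmu-miR-15a-5p and mmu-miR-16-5p to mmu-miR-15b-5p was kept. These alternatives are not independent. The floors of 1 and 4 could not change the values, since all 4 members lay above them. The unscaled values and both 75th-percentile scalings differ by a common factor and so share an order. The share of other miRNAs lower in every alternative was not counted.

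**Figure D3:**
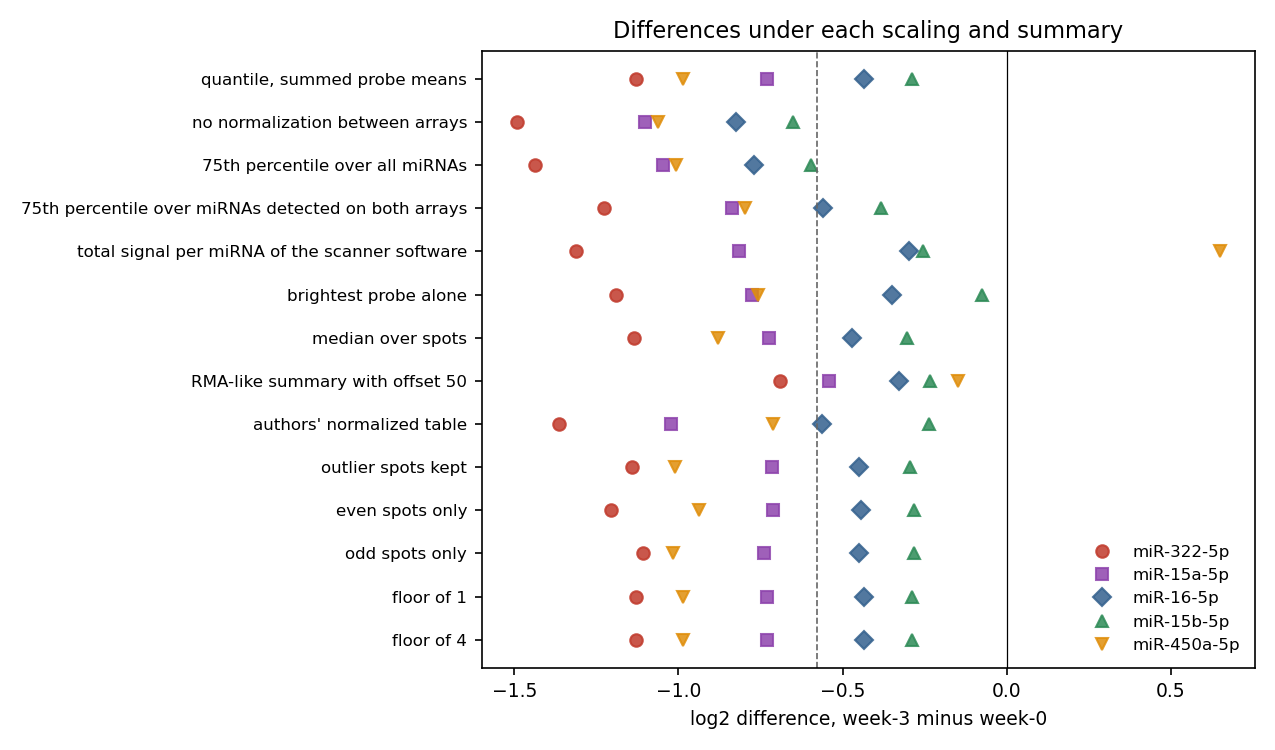
Log2 difference (week-3 minus week-0, x axis) of the 4 detected members and miR-450a-5p under the quantile-normalized summed probe means (top row) and the 13 alternatives below it. The dashed line marks a ratio of 0.67, and within each row the members keep the order miR-322-5p, miR-15a-5p, miR-16-5p, miR-15b-5p, while miR-450a-5p lies above 0 in the row of the scanner's total signal.

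Subtracting the unscaled log2 ratios of 2 members removes any scaling of the arrays by a common factor, which cancels. The 6 pairs of detected members were compared in this way. A difference between the arrays that varies with signal would not cancel. The order of the ratios was also that of the summed signals, from mmu-miR-322-5p, the lowest, to mmu-miR-15b-5p, the highest. The part of signal level in the order was not tested. The log2 ratio of mmu-miR-322-5p minus that of mmu-miR-15a-5p was −0.39 (SE 0.03), minus that of mmu-miR-16-5p −0.67 (SE 0.04) and minus that of mmu-miR-15b-5p −0.84 (SE 0.04). Within the Dleu2 cluster mmu-miR-15a-5p minus mmu-miR-16-5p was −0.28 (SE 0.03), and within the Smc4 cluster mmu-miR-16-5p minus mmu-miR-15b-5p was −0.18 (SE 0.04). Across the clusters mmu-miR-15a-5p minus mmu-miR-15b-5p was −0.45 (SE 0.03). mmu-miR-16-5p, the product of both clusters, thus lay between the partner of each. The part of each locus in its value was not tested.

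The probes taken singly gave the same order. The log2 ratios of the longer and the shorter probe were −1.51 and −1.48 for mmu-miR-322-5p, −1.07 and −1.13 for mmu-miR-15a-5p, −0.84 and −0.77 for mmu-miR-16-5p and −0.70 and −0.57 for mmu-miR-15b-5p, unscaled. In 0 of 6 pairs of members did the probe ratios overlap. The disagreement between probes of one miRNA was largest for mmu-miR-15b-5p, at −0.13 (SE 0.05, longer minus shorter), and this is nearly the size of the step of −0.18 between mmu-miR-16-5p and mmu-miR-15b-5p. For the other 3 it was between −0.08 and 0.06.

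**Figure D4:**
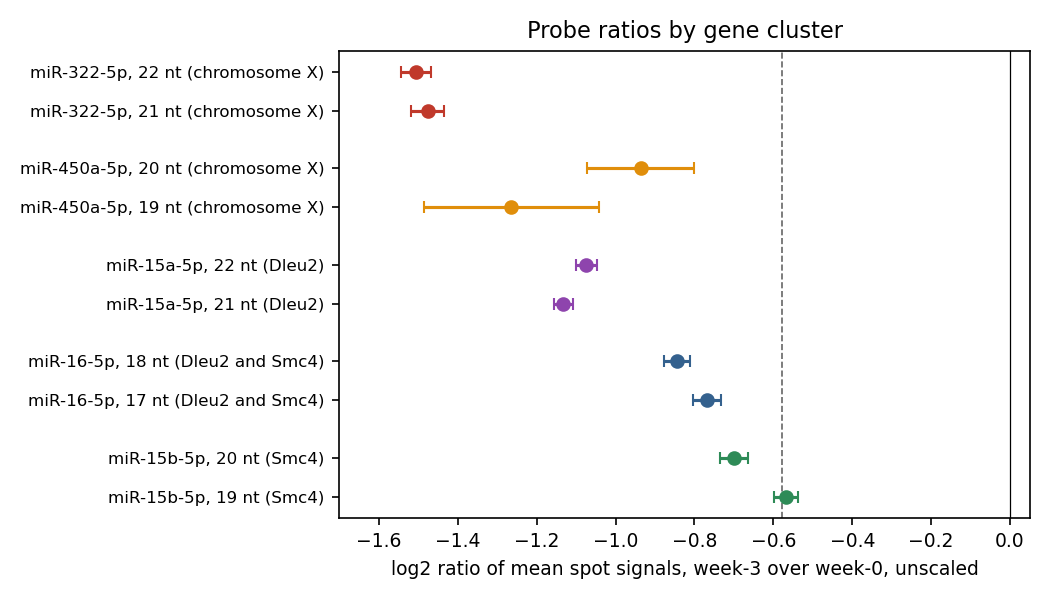
Unscaled log2 ratio of the mean spot signals (week-3 over week-0, x axis) for each probe of the detected members and of miR-450a-5p, grouped by gene cluster, with SE over spots as whiskers. The dashed line marks a ratio of 0.67, and the probe pairs of the 4 members run without overlap from −1.51 and −1.48 for miR-322-5p to −0.70 and −0.57 for miR-15b-5p.

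No probe of the 4 undetected members averaged above the 95th percentile of the array's negative control spots, and some averaged below their 5th percentile. The control spots averaged 4.50 ± 2.92 (SD, n = 977 spots) at week-3 and 4.83 ± 3.56 (n = 960) at week-0. Of the chromosome 11 cluster, mmu-miR-195a-5p had a summed signal of 1.62 ± 1.15 (SE) at week-3 and 2.62 ± 0.887 at week-0. mmu-miR-497a-5p had −1.44 ± 0.916 at week-3 and 1.98 ± 0.919 at week-0. Of the chromosome X cluster, mmu-miR-503-5p had 2.77 ± 0.889 at week-3 and 8.23 ± 1.54 at week-0, and mmu-miR-322-3p had −16.1 ± 1.71 at week-3 and −12.3 ± 2.34 at week-0. Negative sums result from the subtraction of background. No fold is given for these 4, because they were below detection on both arrays.

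Probe means of the undetected members ran from −5.13 to 4.14 at week-3 and from −5.89 to 7.93 at week-0. The highest was the 16-base probe of mmu-miR-503-5p, at 4.14 ± 2.49 (SD) at week-3 and 7.93 ± 4.64 at week-0, both inside the range that holds the middle of the negative controls (5th to 95th percentile −0.359 to 9.10 at week-3 and −0.934 to 11.2 at week-0). The probes of mmu-miR-322-3p were the shortest of the family, at 11 to 14 bases, and all 4 averaged below the 5th percentile of the controls at week-3. A level too low for these probes was not detectable here, which does not show that the miRNAs are absent.

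**Figure D5:**
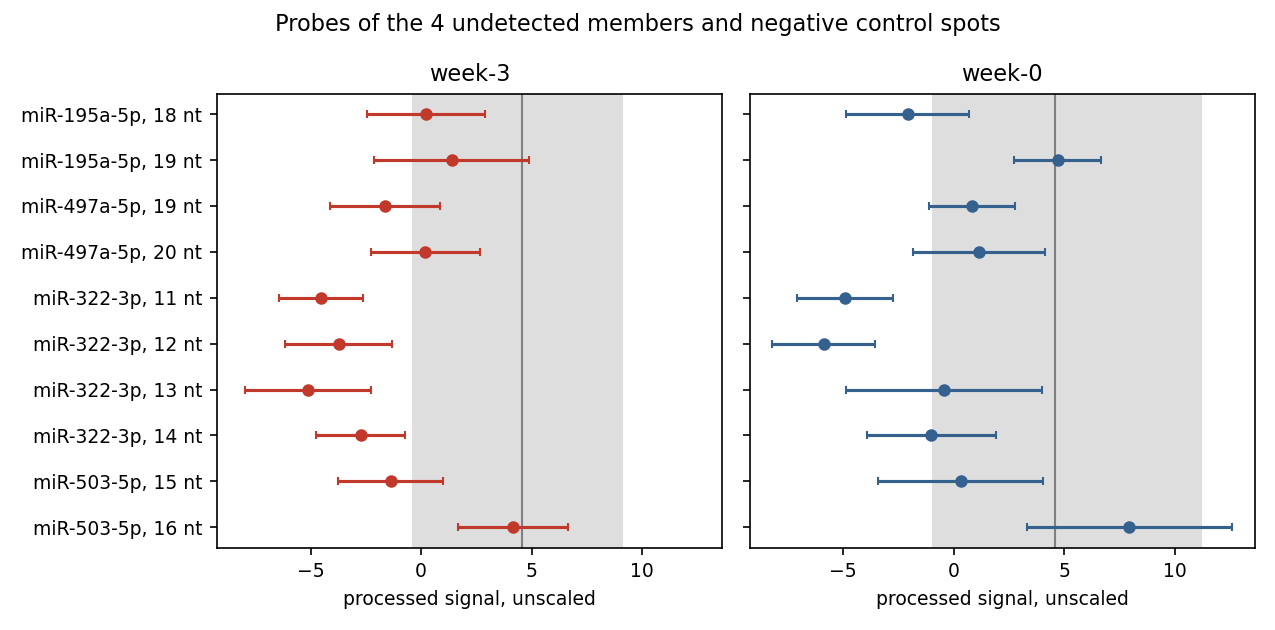
Mean ± SD over spots of each probe of the 4 undetected members (x axis, processed signal not scaled between arrays), week-3 left and week-0 right. Grey bands are the 5th to 95th percentiles of the negative control spots and grey lines their medians, and no probe mean lies above the band, the highest being 4.14 at week-3 and 7.93 at week-0 for the 16-base probe of miR-503-5p.

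The closest pair of sequences in the family fell on opposite sides of detection. The probes of mmu-miR-195a-5p are shown with capitals at the 2 bases that do not pair with mmu-miR-16-5p.
mmu-miR-195a-5p probe of 18 bases: gccaatatttCTgtgctg
mmu-miR-195a-5p probe of 19 bases: gccaatatttCTgtgctgc

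The 18-base probe averaged 0.226 ± 2.67 (SD) at week-3 and −2.08 ± 2.77 at week-0, and the 19-base probe averaged 1.39 ± 3.50 at week-3 and 4.70 ± 1.96 at week-0, on arrays where mmu-miR-16-5p summed to 445 at week-3 and 788 at week-0. Probes of mmu-miR-15a-5p and mmu-miR-15b-5p had 4 mismatches each to the other miRNA. Probes of the remaining undetected member of chromosome 11, mmu-miR-497a-5p, whose sequence differs from that of mmu-miR-15a-5p at 5 of 22 positions, were not above background either (−1.63 ± 2.47 and 0.194 ± 2.46 at week-3, and 0.834 ± 1.95 and 1.15 ± 2.98 at week-0).

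The seed itself was not limited to the members. Among the mature miRNAs held by RefSeq, 10 of 1679 carried bases 2 to 8 of mmu-miR-16-5p, and the 4 that were not members were mmu-miR-195b, mmu-miR-6342, mmu-miR-6353 and mmu-miR-6419. Of these, 0 of 4 were detected on either array. Their summed signals were between −5.85 and 4.40 at week-3 and between −5.10 and 4.34 at week-0. Among the miRNAs with a RefSeq sequence, the detected ones with this seed were mmu-miR-15a-5p, mmu-miR-15b-5p, mmu-miR-16-5p and mmu-miR-322-5p. Each had a lower signal at week-3, as did many of the detected miRNAs.

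The other products of the 4 clusters were mostly undetected. Of 17 further mature miRNAs listed from the clusters, the 7 other arms of the members' precursors included 0 detected, and of 9 neighbours on chromosome X 1 was detected, mmu-miR-450a-5p. One of its precursors, Mir450-1, lies 6010 bases from Mir322. mmu-miR-450a-5p had a summed signal of 17.8 ± 1.29 (SE) at week-3 and 37.3 ± 1.40 at week-0, and a quantile-normalized difference of −0.99 (SE 0.12), 1.98-fold lower and rank 21 of 158. With it the chromosome X cluster had 2 detected miRNAs, and both were lower past the threshold, against a background of 28.6%. mmu-miR-450a-5p was dim. Its 19-base probe averaged 6.42 ± 3.54 (SD) at week-3 and 15.4 ± 3.37 at week-0. Its 20-base probe averaged 11.4 ± 3.52 at week-3 and 21.9 ± 3.99 at week-0. At week-3, 0 of 15 spots of the 19-base probe and 1 of 15 of the 20-base probe were well above background. The 19-base mean at week-3 lay within the 5th to 95th percentile of the negative controls (−0.359 to 9.10). Its direction turned with the scanner's own total signal per miRNA, which was 12.1 at week-3 and 7.91 at week-0 and gave 0.65. The week-0 total had the same proportion to the summed signal as the totals of the 4 members, and the week-3 total did not. With the offset of 50 the difference of mmu-miR-450a-5p was −0.15. Both arms of the neighbouring undetected Mir542, mmu-miR-542-3p at 7.05 ± 1.095 at week-3 and 19.3 ± 1.43 at week-0, and mmu-miR-542-5p at 5.81 ± 2.16 at week-3 and 20.998 ± 3.18 at week-0, had higher sums at week-0 but passed detection on neither array. The undetected mmu-miR-450a-2-3p had a higher sum at week-3, at 16.6 ± 1.95 at week-3 and 5.33 ± 2.04 at week-0.

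Other miRNAs lay close to each detected member in signal and difference. By the Euclidean distance over log2 difference and mean log2 signal among the 158 miRNAs, the nearest to mmu-miR-322-5p was mmu-miR-26b-5p (distance 0.21), with a difference of −1.29. The nearest to mmu-miR-15a-5p was mmu-miR-29b-3p (0.27), with −0.54. The nearest to mmu-miR-16-5p was mmu-let-7d-5p (0.15), with −0.30, and to mmu-miR-15b-5p mmu-let-7i-5p (0.28), with −0.47. The likeness says nothing of shared function or control.

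A pair of other families with roles in cell division were set beside these values. Of let-7 and miR-98 miRNAs, which hold back growth-promoting genes, 9 of 9 were detected on at least 1 array, 6 were lower at week-3 past the threshold, 0 were higher and the median difference was −0.60. Among those lower, mmu-let-7e-5p (−2.22) was detected at week-0 alone. It thus entered only through the array where it is high, unlike the detected members of the family. Of the polycistron that begins with mmu-miR-17-5p, known to promote proliferation, 6 of 6 were detected, 1 was lower, 1 was higher and the median was 0.00. The family's own median of −0.58 was thus near that of let-7, on a background of 28.6% lower. On the unscaled values the medians were −0.94 for let-7, −0.33 for the polycistron and −0.96 for the family.

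Cell-type markers moved between the same 2 arrays. The 3 stem and progenitor markers, mmu-miR-125b-5p, mmu-miR-126a-3p and mmu-miR-130a-3p, were all lower at week-3 (3 of 3 past the threshold, against a background of 28.6%). Their summed signal was 233 at week-3 and 881 at week-0. The summed erythroid markers were 3.03 at week-3 and 46.5 at week-0, of which mmu-miR-451a was 8.95 at week-3 and 48.9 at week-0. The blood-cell markers moved in both directions: mmu-miR-223-3p, a myeloid miRNA, had 1121 at week-3 and 820 at week-0, mmu-miR-142a-3p had 715 at week-3 and 1229 at week-0, and mmu-miR-142a-5p had 89.8 at week-3 and 187 at week-0. Their total, which adds probes of unequal strength as the other totals do, was 1926 at week-3 and 2236 at week-0. The part of these shifts in the family's values was not tested.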

How the data were processed

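Total RNA of the 2 LSK pools was labelled with Cy3 and hybridized to Agilent mouse miRNA arrays, 1 array per group, and the groups were taken from the time in the labels. Feature Extraction 10.7.1.1 was the authors' software for the scans (per the file headers), and the deposited intensity values are processed signals per spot, background-subtracted and not normalized between arrays. The authors also deposited a log2 table that was quantile normalized with AgiMicroRna. How background and spots were treated in it is not given in the sources used here. Its log2 scale was checked against the scanner values (slopes 0.993 at week-3 and 0.988 at week-0, column medians 2.48 and 2.48). The deposited series values equalled it within 4.92e-09, and its flags matched the scanner's for 3762 of 3762 values.

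Outlier spots by the scanner's flags (1600 at week-3 and 1941 at week-0, of which 5 and 8 were members') and control spots were left out of 58594 spots per array, and 0 miRNA spots were saturated. Spot signals were averaged per probe, probe means summed per miRNA, quantile normalized over 1881 miRNAs, floored at 0.5 and converted to log2 (Python 3.11.15, pandas 2.3.3, numpy 2.4.6). With 2 arrays, miRNAs of equal rank receive equal values under this scaling. Detection was the scanner's flag per miRNA, and the number of arrays limits the precision. A miRNA counted as lower or higher at a ratio of at most 0.67 or at least 1.5. The calculation was tested on simulated data. The alternatives were no scaling, the 75th percentile over all or over detected miRNAs, the scanner's total signal, the brightest probe, spot medians, a summary with background correction (normexp, offset 50) in limma 3.58.1 under R 4.3.3, the authors' table, outlier spots kept, the even or the odd spots alone, and floors of 1 and 4. A 2-fold threshold was also applied. The same alternatives for mmu-miR-450a-5p were added after seeing the data.

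The named miRNAs were the 8 members, the other mature miRNAs of their clusters, others with the seed of mmu-miR-16-5p, the nearest detected miRNA to each detected member, and 2 compared families. Members, lists and alternatives were chosen with earlier results of these data known. Sequences and positions are from RefSeq (GRCm38.p6). The probe positions in the scanner files are on another build and were not used.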

Additional observations from a re-analysis of the deposited data

How the results depend on the processing

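The 4 detected members were lower at week-3 and kept their order under all 13 alternatives, over ranges of −1.49 to −0.69 for mmu-miR-322-5p, −1.10 to −0.54 for mmu-miR-15a-5p, −0.83 to −0.30 for mmu-miR-16-5p and −0.65 to −0.07 for mmu-miR-15b-5p. The floors could not change these values, and the unscaled and both 75th-percentile settings share an order by construction. mmu-miR-16-5p and mmu-miR-15b-5p came close to each other with the scanner's total signal after normalization. Before it, these totals were proportional to the summed signals of the 4 members. The count past 1.5-fold, 2 as reported, was 4 without scaling and 4 when arrays were set to their 75th percentile over all miRNAs, and 1 with the offset of 50, which by construction draws dim ratios toward 1. It was 1 at 2-fold. The median of the detected members, −0.58 as reported, was −0.96 without scaling, −0.91 and −0.70 when the 75th percentile was taken over all miRNAs and over those detected on both arrays, −0.43 with the offset and −0.79 in the authors' table. mmu-miR-450a-5p, −0.99 as reported, was 0.65 by the scanner's total signal. Only its week-3 total departed from the proportion to the summed signal seen for the 4 members, and both of its probes were dimmer at week-3. Why that total departs was not tested. The count of detected members was 4 with each detection rule, of which the authors' flags equal the scanner's and so could not give another count. No paired analysis was possible because each group has 1 array, and no replicate could be left out. Spot errors cover neither animals nor arrays. Signals near background, as for the 4 undetected members and mmu-miR-450a-5p, carry the least information.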
